A study of Mus musculus with 48 samples.

Results

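RNA precipitated with anti-FLAG antibody was compared with RNA of the same lysate in 4T1 cells, a mouse mammary carcinoma line derived from a BALB/cfC3H mouse. The comparison used all 48 libraries of the series, 24 RNA immunoprecipitates (RIP) and 24 inputs, which form 24 pairs by construct and replicate number. Cultures carried a lentivirus with a blasticidin marker, were selected as stably transduced populations, and expressed 1 of 5 constructs. These were a control vector with a non-coding stuffer (vector), FLAG-tagged human CNOT7, D40A, a CNOT7 without deadenylase activity, E247A/Y260A, which does not bind the TOB1 and BTG adaptors, and M141R, which does not bind CNOT1. Each construct had 5 pairs (replicates 6 to 10) except D40A, which had 4 (replicates 6, 8, 9 and 10). The CNOT7 constructs were driven by a murine RNA polymerase II promoter, all cultures kept their own mouse Cnot7, and vector cells held no FLAG protein but went through the same precipitation. The question was which gene models followed the precipitate and which stayed in the lysate whatever the bait.

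CNOT7 is a catalytic subunit of CCR4-NOT, the complex that shortens the poly(A) tails of messenger RNAs and so starts their decay. In a native RIP the antibody and beads draw down a bait with the RNA bound to it, but also RNA that sticks to antibody, bead or tube. RIP from cells without the bait measures this second part, and the input measures what was in the lysate to begin with.

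The RIP libraries held 1305627 to 10719137 counts (median 2856012) and the inputs 337861 to 826768 (median 504680.5). A gene model is 1 row of the count table, of which there were 26899. Across 24 of 24 RIP libraries, 13 models held 95.4% to 98.2% of all counts, against 1.59% to 21.1% in the inputs. What remained outside them was 35265 to 377943 counts in a RIP library and 295699 to 737629 in an input. D40A RIP 9 stood apart with the largest of these RIP values, where the other RIP libraries reached at most 107582, and CNOT7 input 10 had the lowest share on the 13 models. Outside the 13 models, 3 counts stood for 46.7 per 1000000 counts in the median RIP library and for 7.03 in the median input, so a model that is low in RIP is measured less well than one that is low in input. These figures cover counting error only.

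**Figure D1:**
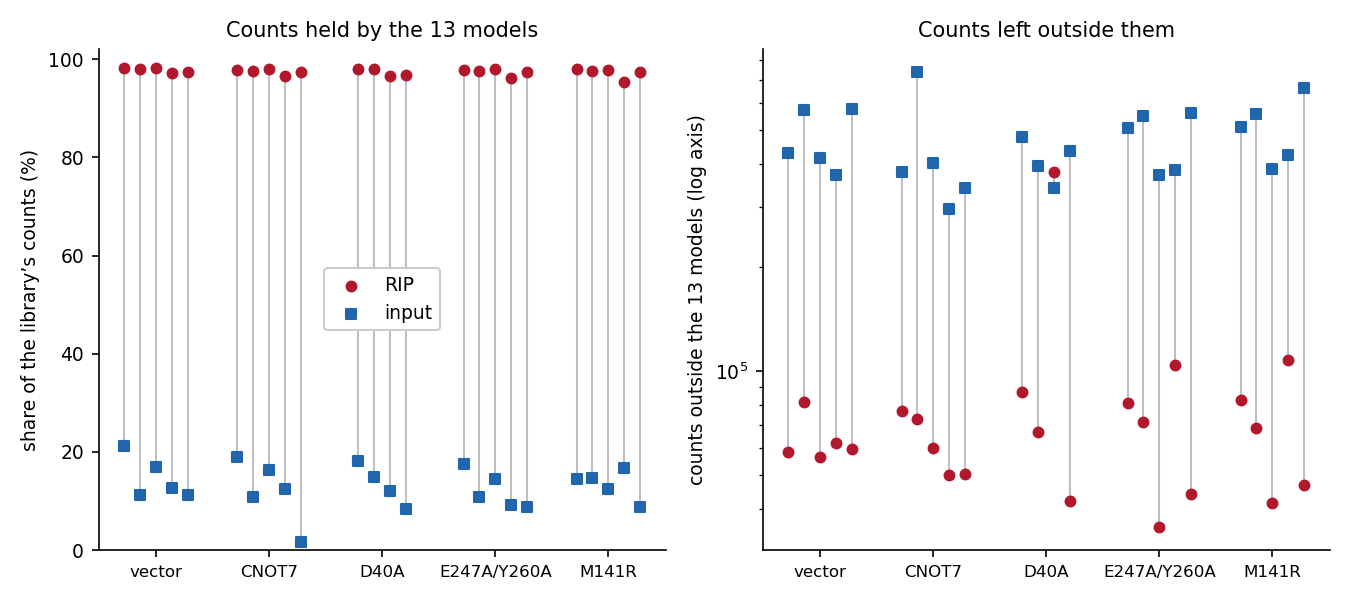
Share of each library's counts on the 13 models of highest mean RIP share (left, percent) and the counts outside them (right, log axis), with 1 line per pair joining RIP (circles) and input (squares), in order of replicate number within each construct. RIP shares lie between 95.4% and 98.2% in every construct, vector included, and input shares between 1.59% and 21.1%; D40A RIP 9 is the only RIP library with more counts outside the 13 than its input.

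Most of the RIP signal sat on the same few models in every construct. The first of them, ENSMUSG00000045999, took 61.1% ± 2.66 (SD, n = 24) of RIP counts and 0.606% ± 0.470 of input counts. Filip1l, which codes for a filamin A-interacting protein, took 10.5% ± 1.27 of RIP counts and 0.509% ± 0.267 of input counts. Jarid2, a subunit associated with Polycomb repressive complex 2, took 6.76% ± 0.878 against 0.0695% ± 0.191. Each of these models had a higher share in RIP in 24 of 24 pairs.

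The next in order were ENSMUSG00000082697, Tmtc2, Zc3h7a, LOC102639045, Cntnap5b, Galnt2, Fgfr2, Il1rapl1, Kpna1 and Atf2. They include the importin alpha gene Kpna1, the transcription factor gene Atf2 and the receptor gene Fgfr2. LOC102639045 (Gm15564 in GENCODE M21) and Kpna1 lie on opposite strands of the same stretch of chromosome 16. The model named Galnt2 carries the gene ID ENSMUSG00000092329, which GENCODE M21 names Gm20388. Atf2 was the last inside the 13 with a mean RIP share of 0.257%, and Ccdc107 the first outside with 0.240%. These shares chose the 13 models and are given as a description.

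As a ratio scaled by edgeR's trimmed mean of M-values (TMM, the scale of every log2 ratio below unless said otherwise), 11 of the 13 models had mean log2 ratios of RIP to input from 8.91 (Filip1l) to 13.15 (Tmtc2). Fgfr2 had 3.51 ± 0.26 (SE) and Galnt2 0.49 ± 0.31 (adjusted p = 0.175, edgeR quasi-likelihood test). By share of all counts, Galnt2 was lower in RIP, at 0.696% against 10.7%, and higher in 1 of 24 pairs, that of CNOT7 replicate 10, whose input held 0 Galnt2 counts. Fgfr2 also had a lower mean share in RIP, 0.536% against 1.04%, and was higher in 3 of 24 pairs. The direction of these 2 models thus turned with the scale: with library size alone their log2 ratios were -3.89 and -0.88.

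This matters for every other model, because the scale decides where 0 lies. The median log2 ratio over all models tested was -0.66 with TMM, 0.05 with DESeq2 size factors and -4.82 with library size alone. Removing the 13 also changed which models passed the filter on low counts, and 4796 were tested both ways. Over these the median was -0.52 with TMM, 0.15 with DESeq2 and -4.80 with library size, and -0.31, 0.16 and 0.27 in the same order without the 13. A library's count only gives a model's share of what was sequenced, so more of a model and less of the rest cannot be told apart, and in bulk cultures neither can fewer cells of a type and less RNA per cell.

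Over all constructs, 572 of 6931 models tested were higher in RIP (8.25%) and 3199 lower (46.2%) at an adjusted p below 0.05. DESeq2 called 1519 higher and 1289 lower, and library size alone 21 and 6909. Without the 13, 1528 of 5719 models were higher (26.7%) and 1956 lower (34.2%), and library size alone then gave 2561 and 995. Of these 5719 models, 923 were tested only without the 13, and 769 of them were called higher and none lower. These 923 passed the filter only through RIP libraries, which became smaller without the 13, so their calls are given as a description. Among the 4796 models tested both ways TMM called 560 higher and 2276 lower with all models kept, and 759 (15.8%) and 1956 (40.8%) without the 13. Over the same models DESeq2 called 1461 higher and 1153 lower with all models kept, and library size without the 13 called 1666 and 995, so the direction of the majority depended on the scale. The count of higher models also rose to 957 without D40A replicate 8 and to 910 without D40A replicate 9.

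In a single construct, 87 (vector), 100 (CNOT7), 90 (D40A), 99 (E247A/Y260A) and 168 (M141R) models were higher in RIP. The lower ones numbered 1122, 973, 666, 1005 and 1078 in the same order. Without D40A replicate 9 the lower models numbered 543, 489, 197, 660 and 675 and the higher ones 181, 245, 62, 222 and 319. Without M141R replicate 9 the higher models in M141R numbered 61, and without E247A/Y260A replicate 9 those in E247A/Y260A numbered 48. No model was called higher in 1 construct and lower in another. Log2 ratios of 2 constructs correlated across the 6931 models with Pearson's r from 0.62 to 0.72. Across the 5719 models tested without the 13, which include the 923 that passed only through RIP, r was 0.73 to 0.82. Constructs share no library, but they share replicate numbers, which moved together as given below, so they are not independent sets. Genes are not independent replicates, and each ratio holds the spread of its own 4 or 5 pairs.

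The same direction in all 5 constructs, vector included, was found for 42 higher models (0.606% of those tested) and 422 lower ones (6.09%). Without the 13 the counts were 46 (0.804%) and 309 (5.4%) of 5719 models, which include the 923 that passed only through RIP. Of the 30 higher models that were not among the 13, 29 were called again, and of the 422 lower models 308 were. The 422 fell to 147 without D40A replicate 8, to 129 without D40A replicate 9 and to 249 without D40A replicate 6, and the 309 fell to 142 without D40A replicate 9. Without the pairing as a block, the 422 became 237 and the 309 became 181.

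A smaller set was called under 5 scalings. It was defined after the values had been seen, as the models called the same way in every construct with TMM and DESeq2 scaling of all models and with TMM, DESeq2 and library-size scaling without the 13. It held 29 higher and 73 lower models, none of them among the 13. When each of the 24 pairs was left out in turn, 23 of the 29 were called in every construct in all 24 fits, both with and without the 13, and so were 70 of the 73 with and 69 without the 13. With each replicate number left out in turn, 24 of the 29 were called in every construct in all fits with the 13 and 21 without. Of the 73, 69 were called with and 65 without the 13. The call over all constructs held in each of those fits for all 29 and all 73. Library size alone with all models kept is not among the 5 scalings. Under it all 73 lower models stayed lower in every construct, but 9 of the 29 were higher in every construct, 19 turned to a negative log2 ratio and 18 of these were called lower. Models outside this set are also named below, such as mt-Nd6, Mrps24, Mrps25, Tcp1, Malat1 and Rab10os. They were not called in every construct under all 5 scalings.

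**Figure D2:**
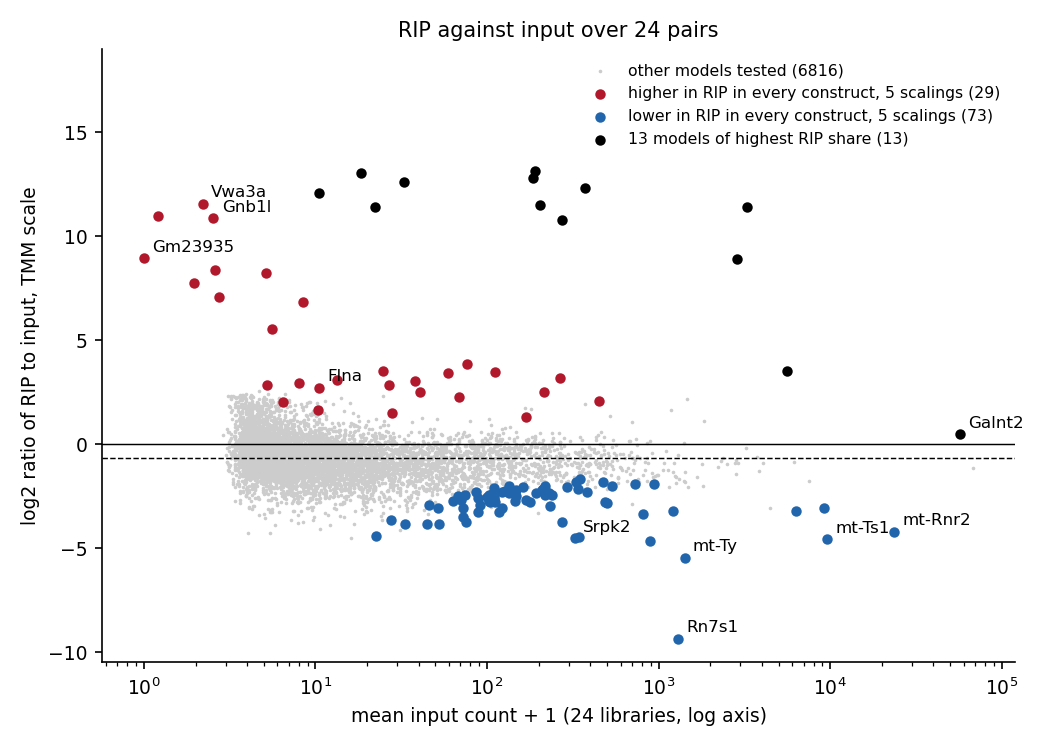
Log2 ratio of RIP to input (TMM scale, mean over 24 pairs) of the 6931 models tested against their mean input count plus 1 (log axis); the dashed line is the median of all models, -0.66. Black points are the 13 models of highest RIP share, red the 29 and blue the 73 models called higher or lower in every construct under 5 scalings; the red points with the largest ratios lie at input counts of about 0 to 10, and mt-Rnr2, mt-Ts1 and Rn7s1 are the far blue points at high input counts.

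The largest ratios outside the 13 belonged to models with few or no input counts. Such models could pass the filter only through the RIP libraries, so their ratios and calls are given as a description. Vwa3a, a gene for a von Willebrand factor A domain protein, had 417, 980 and 2981 counts (lowest, median and highest) in the 24 RIP libraries and 0, 0 and 11 in the inputs. Gnb1l, a WD40-repeat gene, had 333, 831 and 2104 counts in RIP and 0, 1 and 8 in the inputs. No RIP library came near an input for either model. With each input below 3 counts raised to that floor, their log2 ratios were at least 10.05 (Vwa3a) and 9.83 (Gnb1l). The fitted values, 11.57 and 10.88, depend on the count that the fit adds to inputs at 0.

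These counts were present in vector RIP as well. In vector cells Vwa3a had 693 to 1153 RIP counts and 0 to 2 input counts, and in cells with wild-type CNOT7 it had 417 to 1231 and 0 to 1. Over the 5 constructs its log2 ratio ranged from 10.98 in M141R to 12.68 in CNOT7. M141R replicate 9 was the lowest pair at 7.20, and it also held the highest Vwa3a input count.

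Fam163b had 85, 191 and 607 counts in RIP and at most 1 in any input. Against a floor of 3 counts per library, its log2 ratio was at least 7.96. Dnah7b, an axonemal dynein heavy chain gene, Itga9, the integrin alpha 9 gene, Rsph3a, a radial spoke gene, Ptpla, Dcaf10 and Arhgap21 completed the 10 largest ratios outside the 13, with Gm23935. Apart from Gm23935, their fitted log2 ratios ran from 8.37 (Dnah7b) to 5.53 (Arhgap21), or at least 7.31 and 5.44 with inputs raised to the floor, and each was higher in RIP in 24 of 24 pairs.

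The groups did not overlap for Itga9 and Dcaf10 either. Itga9 had 122, 322.5 and 994 counts in RIP and 0, 3.5 and 12 in the inputs. Dcaf10, a substrate receptor gene of CUL4 ubiquitin ligases, had 80, 200.5 and 572 against 1, 6.5 and 26. In all, 21 models outside the 13 were higher in every construct with a mean of at least 10 RIP counts and a higher ratio in all 24 pairs, and these 10 are the largest of them.

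The share of RIP counts varied between libraries by model. Its coefficient of variation over the 24 RIP libraries was 25.2% for Vwa3a, 14.4% for Fam163b and 22.5% for Gnb1l, and at most 36.8% (Rsph3a) among these 10 except Gm23935, with 75.8%. Within the 13 it ran from 4.35% (ENSMUSG00000045999) to 31.1% (Kpna1).

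Gm23935 is the only model among them that is annotated as a microRNA, and it had 0 counts in 24 of 24 inputs. Which RNA the counts on this model come from was not tested. Gm23935 had 2, 19.5 and 245 counts in RIP, and 11 to 40 in vector RIP alone. Against 3 counts per input library, its log2 ratio was at least 4.94. It is 57 bases long, lies on chr16:11144125-11144181 (plus strand, GRCm38, GENCODE M21) and sits inside the span of Zc3h7a, 1 of the 13 models, which runs on the minus strand. Its sequence is shown because no other model named here was absent from all inputs. It was read 5′ to 3′ from the GENCODE M21 transcripts:
Gm23935: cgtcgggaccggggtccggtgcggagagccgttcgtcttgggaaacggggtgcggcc

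**Figure D3:**
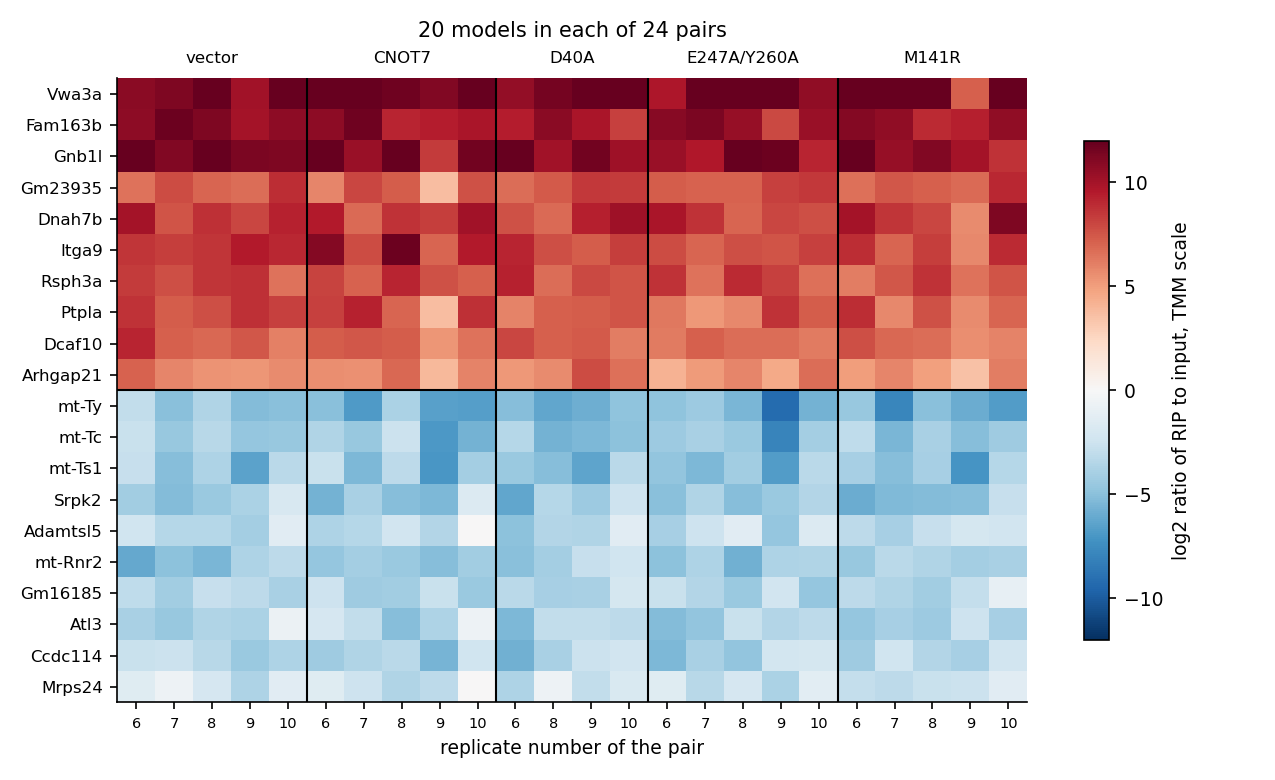
Log2 ratio of RIP to input (TMM scale, 0.5 counts added) in each of the 24 pairs for the 10 models with the largest and the 10 with the most negative ratio among those called in every construct and moved 1 way in every pair; colours saturate at 12 and -12. All columns of the 10 upper models are red in every construct, vector included, and M141R replicate 9 is the palest for Vwa3a at 7.20.

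Further down, the ratios of the 29 turned with the scale. Myh9, the non-muscle myosin IIA heavy chain, had 2, 11.5 and 109 counts in RIP and 0, 6 and 19 in the inputs. Flna, the actin crosslinker filamin A, had 0, 13.5 and 123 against 0, 9 and 28, and Sptan1, alpha-II spectrin, had 0, 8 and 64 against 0, 4.5 and 9. These raw counts overlapped. The ratios were 2.93 ± 0.22, 2.72 ± 0.25 and 2.85 ± 0.27, but with library size alone and all models kept they were -1.45, -1.60 and -1.45, since RIP libraries held more counts in total.

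Some members overlap another gene on the other strand. LOC102634814 and A930005N03Rik overlap exons of Dst, the gene for the linker protein dystonin, on the other strand. Capn12 does so for Actn4 (alpha-actinin 4), B230344G16Rik for Itgb4 (integrin beta 4) and Itpr3os for Itpr3, an inositol trisphosphate receptor. LOC102634814 had 51, 632 and 2188 counts in RIP and 46, 208.5 and 518 in the inputs, with a log2 ratio of 3.18 ± 0.19. Capn12 had 9, 81 and 340 against 29, 64.5 and 114, with 2.25 ± 0.18. Cmss1 lies across Filip1l on the other strand and had 2.10 ± 0.23. With library size alone and all models kept, LOC102634814, Capn12 and Cmss1 were at -1.20, -2.13 and -2.29.

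Spata5, a AAA ATPase gene, had 29, 127.5 and 1741 counts in RIP and 1, 43.5 and 300 in the inputs, a ratio of 3.87 ± 0.31. It was higher in 24 of 24 pairs, although its raw counts overlapped, and was at -0.49 with library size alone.

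Which strand a count stands for was not given in the sources used here. The library kit keeps strand, and 51.2% of tested models with annotation overlap an exon of another gene on the opposite strand. Where an opposite-strand model is named after its gene, the model had the higher mean input count in 71 of 151 pairs of model and gene. Ccdc107, with 13.02% of input counts, overlaps on the other strand the gene for Rmrp, the RNA of RNase MRP, for which the inputs had 59, 192 and 408 counts. Counts of such partners were separate and could differ widely in either direction: mean input counts were 1306 for Rab10os and 11.5 for Rab10, but 0.17 for Far2os2 and 350.4 for Far2. Whether the names of the partners are exchanged could not be settled. A gene name in these results, also in the gene lists below, means the model of that name and not an RNA of known strand.

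Mitochondrial models on the minus strand stayed in the lysate. The mitochondrial genome is transcribed from both strands: the plus strand in the annotation carries both ribosomal RNAs, 14 transfer RNAs and 11 of the protein genes measured here, and the minus strand 8 transfer RNAs and Nd6. All 9 minus-strand models were lower in RIP, and 8 of them in every construct. Without the 13, mt-Ta was no longer called in every construct. Of the minus-strand models, only mt-Tn, mt-Tc, mt-Ty, mt-Ts1 and mt-Te were in the set called under 5 scalings. Of 27 plus-strand models, 12 were lower, 3 higher and 12 not called, and 1 was lower in every construct. Over all models tested, 46.2% were lower, 8.25% higher and 6.09% lower in every construct, so the plus-strand counts were near those shares.

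The median log2 ratio was -3.36 over the minus-strand models and -0.55 over the plus-strand models, beside -0.66 over all models tested. Summed, the minus-strand models held 0.431% ± 0.358 (SD, n = 24) of RIP counts outside the 13 and 4.15% ± 2.43 of input counts, and were lower in RIP in 24 of 24 pairs. The plus-strand models held 3.46% ± 3.93 against 7.21% ± 2.25 and were lower in 23 pairs. Much of the input sum was mt-Rnr2. The plus-strand protein genes held 1.54% against 1.61% (lower in 15 pairs) and the plus-strand transfer RNAs 0.0520% against 0.0221% (higher in 16). The exception was D40A replicate 10, in which the plus-strand share of RIP reached 19.8%.

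mt-Ts1, a serine transfer RNA gene that overlaps mt-Co1 on the other strand, had 29, 63.5 and 333 counts in RIP and 802, 10432 and 17751 in the inputs. The input median of mt-Co1 was 1297. Which strand the counts on these minus-strand models stand for was not tested. mt-Ty had 1, 7 and 53 against 416, 1394 and 2355, and mt-Tc 2, 7.5 and 49 against 179, 973 and 1658. Every input lay above every RIP library for these 3 models. Their log2 ratios were -4.58 ± 0.27, -5.46 ± 0.23 and -4.64 ± 0.21, lower in 24 of 24 pairs.

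mt-Tn had 0, 2.5 and 30 counts in RIP and 5, 415.5 and 852 in the inputs, and was lower in 22 of 24 pairs. The annotated sequences of these 4 minus-strand transfer RNA models are shown because the models have the most negative ratios among the mitochondrial ones. They were read 5′ to 3′ from the GENCODE M21 transcripts (GRCm38), with the anticodon in capitals:
mt-Ty, chrM:5260-5326: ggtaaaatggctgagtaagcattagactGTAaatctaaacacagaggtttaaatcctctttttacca
mt-Tc, chrM:5192-5257: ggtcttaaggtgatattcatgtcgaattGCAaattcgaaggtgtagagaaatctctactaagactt
mt-Tn, chrM:5089-5159: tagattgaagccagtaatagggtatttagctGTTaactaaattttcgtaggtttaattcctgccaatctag
mt-Ts1, chrM:6870-6938: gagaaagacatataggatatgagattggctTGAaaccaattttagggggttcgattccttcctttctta

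mt-Tn, mt-Tc and mt-Ty are neighbours, and together with mt-Ta they form 1 cluster of minus-strand genes. mt-Ta was lower as well, at -2.39 ± 0.25, and so were mt-Te at -3.36 ± 0.27 and mt-Tp at -3.29 ± 0.26. mt-Tq had the smallest change of the minus-strand models, -1.55 ± 0.25. mt-Nd6, the only protein gene on this strand, had 36, 100 and 732 counts in RIP and 732, 3534.5 and 12802 in the inputs, with a ratio of -3.06 ± 0.25.

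On the plus strand, mt-Rnr2, the 16S ribosomal RNA, was the exception. It had 64, 253 and 4155 counts in RIP and 11553, 25048 and 37333 in the inputs, with no overlap, and a ratio of -4.21 ± 0.22. mt-Rnr1, the 12S ribosomal RNA from the same precursor, had 32, 297.5 and 5759 against 524, 1262 and 2574, with 0.06 ± 0.25. mt-Rnr2 fell in 24 pairs, while mt-Rnr1 was higher in 14 of 24.

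The protein genes of the plus strand changed less. mt-Co1 had the lowest ratio, -1.80 ± 0.23, and mt-Atp8 the highest, -0.02 ± 0.25, with a median of -1.01 over the 11. Among 14 plus-strand transfer RNAs, mt-Ti (0.88 ± 0.26), mt-Tm (1.33 ± 0.39) and mt-Tr (1.23 ± 0.45) were higher and mt-Tt (-1.08 ± 0.33) lower. The higher ones were so in only 14, 14 and 15 of 24 pairs, and none was called in a single construct. Their median RIP counts were 3, 4.5 and 1. Median input counts of the called transfer RNAs were between 2 and 11.

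**Figure D4:**
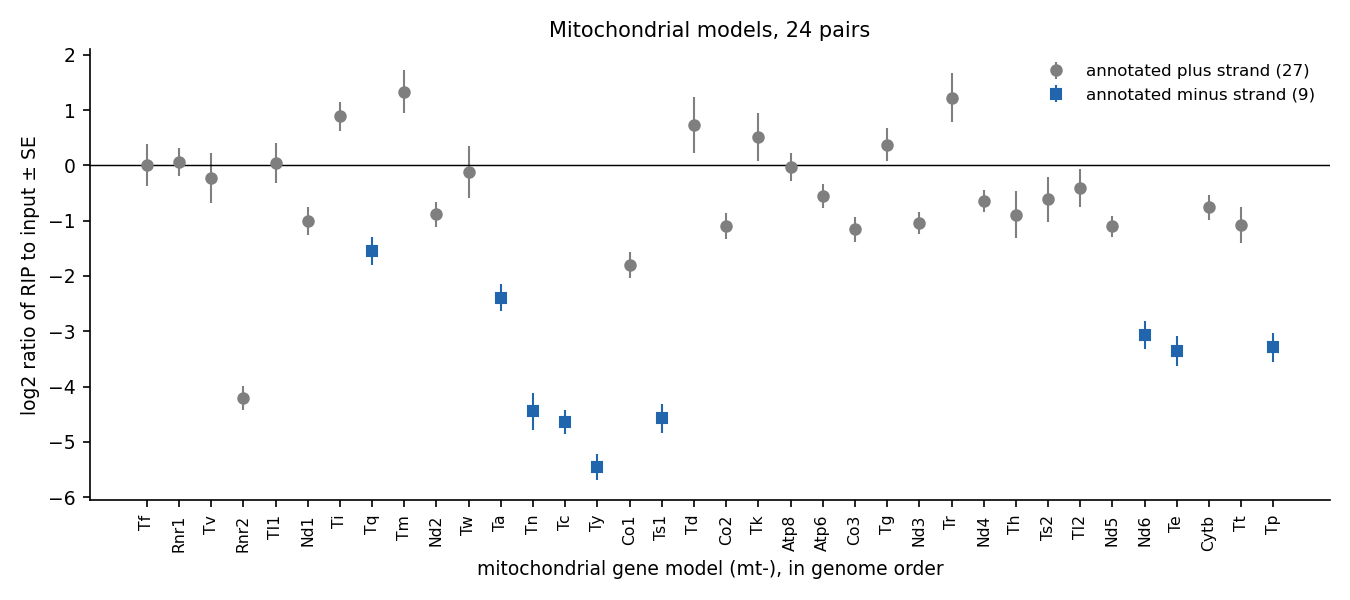
Log2 ratio of RIP to input (TMM scale, mean over 24 pairs, bars SE) of the 36 mitochondrial models in genome order, with circles for models annotated on the plus strand and squares for the minus strand. The squares lie between -1.55 and -5.46, and among the circles only mt-Rnr2, at -4.21, lies in the same range below -2.

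Of 60 genes for small structured RNAs of the nucleus and cytoplasm 10 could be tested, 8 were lower (46.2% of all models were), none was higher, and 2 were lower in every construct. The median was -2.89, or -1.34 when the 4 members with at most 3 counts in every RIP library were set at that floor, beside -0.66 and -0.33 for all models. Relative to all models the median was -2.23, but -1.20 with DESeq2, -0.56 with no filter and -0.33 with at least 10 counts in 24 libraries. Rpph1, the RNA of RNase P, had 0, 0 and 6 counts in RIP and 3, 18 and 85 in the inputs, and Rmrp had a ratio of -1.15 ± 0.18.

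Rn7s1, a copy of the 7SL RNA of the signal recognition particle, had 0, 1562.5 and 3243 counts in the inputs and 0 in 23 of 24 RIP libraries. The remaining one, vector RIP 7, had 36 counts while its own input had 1. With RIP libraries below 3 counts raised to that floor, its log2 ratio was at most -6.25, and the fitted value of -9.36 is no bound. Rn7s2, a near-identical copy with which it may share reads, had 35 counts in vector RIP 7, 0 in the other RIP libraries and up to 111 in the inputs.

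Among nuclear-encoded models that stayed behind, Srpk2, an SR protein kinase gene, had 1, 3 and 23 counts in RIP and 43, 337 and 517 in the inputs. Its ratio was -4.52 ± 0.20, from -5.17 to -4.01 over the constructs. Srpk2 overlaps Kmt2e on the other strand. Atl3, the endoplasmic reticulum GTPase atlastin 3, Ccdc114, Gm16185, Adamtsl5 and Mrps24, a mitochondrial ribosomal protein gene, made up the rest of the 10 most negative models that were lower in every pair. Adamtsl5 and Mrps24 had at most 3 counts in any RIP library, and against that floor their log2 ratios were at most -0.82 and -0.22.

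Larger counts were lost at Cmah, a sialic acid hydroxylase gene, which had 40, 178.5 and 1281 counts in RIP and 1998, 5534.5 and 11668 in the inputs, a ratio of -3.20 ± 0.14. ENSMUSG00000092267 had 82, 196.5 and 785 against 2506, 6746 and 31007. Neither overlapped between RIP and input. Cdk4, the cyclin D-dependent kinase gene, had 25, 46.5 and 440 against 450, 719.5 and 1007, with -1.91 ± 0.13, and overlaps Tspan31 on the other strand.

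Overlap with a gene on the other strand is a feature that the calls did not use. Among models with annotation, an opposite-strand exon overlap was present in 77.3% of 418 lower in every construct, in 35.9% of 39 higher in every construct and in 51.2% of all tested. Outside the 13 the higher share was 44.8% of 29, and in the fit without the 13 it was 46.7% of 45 higher and 76.9% of 307 lower, so the higher models were nearer to all tested than the lower ones. These shares are a description with no test. In the set called under 5 scalings it was present in 69.0% of 71 lower and 42.9% of 28 higher annotated models. Counts on such models did not differ in sum: they were 69.0% ± 8.71 of RIP counts outside the 13 and 70.0% ± 3.02 of input counts, higher in RIP in 13 pairs and lower in 11.

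Genomic span and exon length are given in the same way. The median span was 19.8 kb in the 422 lower models, 58.4 kb in the 42 higher ones and 25.4 kb in all tested, and it was 32.1 kb in the 30 higher models that were not among the 13. In 4 classes of exon length, cut at 2285.5, 4270 and 7136.25 bases, the median log2 ratio was -0.85 for the shortest models, -0.84 and -0.65 for the middle classes and -0.29 for the longest, over 1714 to 1721 models each. With members at the floor set at that floor, the medians were -0.33, -0.40, -0.42 and -0.19. In summed counts outside the 13, the shortest class held 43.5% of RIP and 51.1% of input counts, lower in RIP in 20 of 24 pairs. The longest held 16.1% and 12.1%, higher in 22, and the middle classes were higher in RIP in 21 and 17 pairs. The shortest class held the 36 mitochondrial models, and without them it had 39.6% of RIP and 39.8% of input counts, lower in RIP in 12 of 24 pairs. With the mitochondrial counts left out of the total as well, the longest class was higher in 16 pairs (16.8% against 13.7%). The middle classes were then higher in 15 pairs (21.9% against 21.1%) and 12 pairs (17.8% against 17.3%), and the shortest class was lower in 14. The RIP libraries held at most 3 counts throughout for 408, 370, 223 and 81 models in these classes.

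For gene lists, counts of called members and summed shares did not always point the same way. The counts below are read against 46.2% lower and 8.25% higher over all models, and the shares are of counts outside the 13. Of 51 cytosolic ribosomal protein models tested, 32 were lower, none was higher and none changed in every construct, with a median of -1.28, or -0.60 with 17 members at the floor. Of the 19 tested both ways, 11 were lower with all models kept and 9 without the 13. Their summed share was 0.165% in RIP and 0.158% in input, higher in RIP in 14 of 24 pairs, and relative to all models the median turned from -0.62 to 0.070 with at least 10 counts in 24 libraries. Rps2 had 20, 43.5 and 165 counts in RIP and 7, 241 and 620 in the inputs, a ratio of -0.24 ± 0.18 (adjusted p = 0.262). Rpl5 had -1.76 ± 0.20 and Rpl23 -1.23 ± 0.21.

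Of 20 mitochondrial ribosomal protein models, 17 were lower and none higher, with a median of -1.49, or -0.85 with 7 members at the floor. Their summed share was lower in RIP in 24 of 24 pairs (0.105% against 0.142%). Of the 13 tested both ways, 11 were lower both with and without the 13. Mrps25 had 9, 21 and 57 counts in RIP and 67, 216.5 and 499 in the inputs, and was lower in every construct at -1.45 ± 0.12. Of 25 nuclear-encoded oxidative phosphorylation models, 17 were lower and none higher, with a median of -1.07, or -0.33 with 7 members at the floor. Of the 12 tested both ways, 6 were lower with all models kept and 5 without the 13 (medians -0.47 and -0.28), near the share of all such models. Their summed share was higher in RIP in 17 of 24 pairs, and the relative median turned from -0.41 to 0.54 with the stricter filter. Atp5o had a ratio of -0.62 ± 0.18, while Cox6c had -0.30 ± 0.15 and did not pass (adjusted p = 0.0932).

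Translation factors (11 of 26 lower, 1 higher), glycolysis (3 of 10 lower), cytosolic chaperones (6 of 15 lower), proteasome (10 of 16 lower, 1 higher) and endoplasmic reticulum folding and secretion (8 of 22 lower) had medians from -0.31 to -0.93. The lower counts of translation factors and chaperones were near the share of all models. The proteasome median was -0.93, or -0.34 with 3 members at the floor. Of models tested both ways, 7 of 18 translation factors were lower and 3 higher without the 13, and 4 of 10 proteasome models were lower and 1 higher, beside 40.8% and 15.8% of all such models. Summed shares were higher in RIP in 22 pairs for the proteasome (0.188% against 0.153%) and for the endoplasmic reticulum list (0.316% against 0.255%), and in 20 for glycolysis. Eif5b, an initiation factor, had -0.90 ± 0.14, and Eif4g3, a scaffold factor of initiation, was the higher one at 1.01. The chaperonin gene Tcp1 had -1.33 ± 0.15 and was lower in every construct. Hspa5, the chaperone BiP, had -0.09 ± 0.17 (adjusted p = 0.655), with 3, 15 and 279 counts in RIP and 28, 71.5 and 158 in the inputs.

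The cytoskeleton list moved in both directions: of 15 models tested 4 were higher, beside 8.25% of all models, and 4 lower. Of the 10 tested both ways, 4 were higher and 4 lower with the 13 and without them, beside 15.8% and 40.8% of all such models without the 13. The higher ones included Myh9, Flna and the alpha-actinin gene Actn1 (1.66 ± 0.28). The lower ones were Arpc1b of the Arp2/3 complex (-1.12 ± 0.13), Tuba4a (-1.44 ± 0.24), Tpm4 (-1.76 ± 0.29) and Krt7 (-0.91 ± 0.25). Myh9 and Flna were higher in every construct. The summed share of the list was 0.153% ± 0.0417 in RIP and 0.0943% ± 0.0188 in input, higher in RIP in 23 of 24 pairs.

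Of 10 long noncoding RNAs tested, 6 were lower and none higher, and the median relative to all models turned from -0.58 to 0.18 with at least 10 counts in 24 libraries. Malat1, a nuclear-retained RNA, had 0, 6.5 and 36 counts in RIP and 30, 92.5 and 641 in the inputs, and was lower in every construct at -2.06 ± 0.18. Opposite-strand genes with the suffix os counted 112 tested, of which 52 were lower and 11 higher, close to the shares of all models. Rab10os had -1.69 ± 0.15 and was lower in every construct.

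Of 97 microRNA genes named Mir, 10 could be tested, 6 were lower and 1 higher. Their median was -1.29, or 0.084 with 3 members set at the floor, and their summed share was higher in RIP in 20 of 24 pairs. Whether counts on these models come from microRNAs was not tested. Mir6236 had 10, 32.5 and 188 counts in RIP and 3, 78 and 519 in the inputs, and a ratio of 1.22 ± 0.33 (adjusted p = 0.00131). Mir6340 (-1.59 ± 0.18) and Mir130c (-1.83 ± 0.27) were lower. Of the replication-dependent histones, 2 of 49 could be tested: Hist1h1e did not pass (-0.19 ± 0.36, adjusted p = 0.668) and Hist2h2ab was called lower, with at most 1 count in any RIP library. With RIP set at 3 counts its log2 ratio was 1.31, so these counts do not fix its direction.

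**Figure D5:**
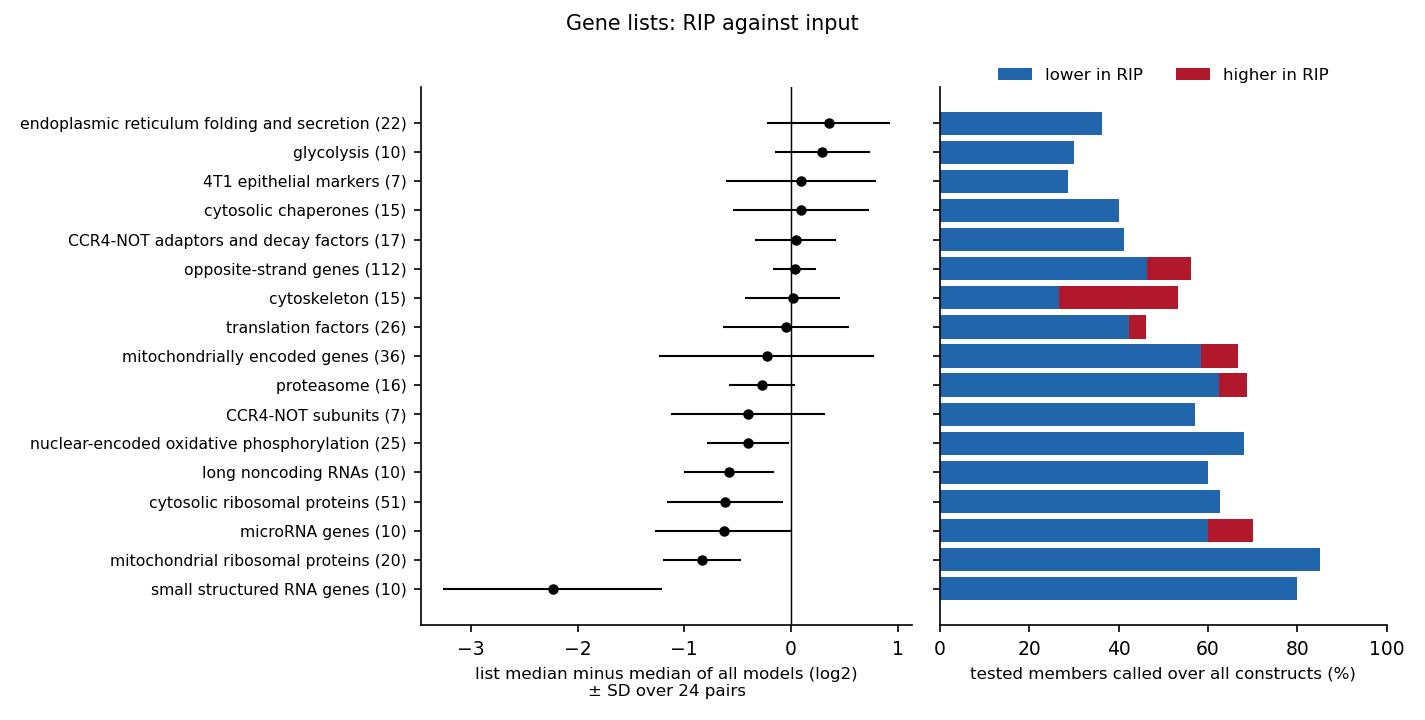
Left, the median log2 ratio of each gene list with 5 or more tested members (number in brackets) minus the median of all models tested, with bars for the SD of that difference over 24 pairs; right, the percentage of tested members called lower (blue) or higher (red) in RIP over all constructs. Small structured RNA genes lie lowest at -2.23 and mitochondrial ribosomal proteins next at -0.83, and the cytoskeleton list has the longest red bar, 4 of 15.

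The mouse gene of the bait had fewer counts in RIP. Mouse Cnot7 had 0, 6 and 18 counts in RIP and 6, 78 and 178 in the inputs, with a ratio of -1.85 ± 0.16 and a range from -2.11 to -1.69 over the constructs. It was lower in 23 of 24 pairs. Its counts did not separate the cultures with a CNOT7 construct from vector: the inputs had 63 to 104 counts in vector and 6 to 142 in CNOT7.

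Of 7 CCR4-NOT subunit models tested, 4 were lower and none higher, which is near the shares of all models, with a median of -1.06. Their summed share was 0.0222% in RIP and 0.0294% in input, lower in RIP in 19 of 24 pairs. Of the 5 tested both ways, 3 were lower and none higher without the 13, beside 40.8% and 15.8% of all such models. The subunit tested only without the 13 was higher. Cnot1, the scaffold subunit, had -0.30 ± 0.25 (adjusted p = 0.306) and Cnot3 -1.29 ± 0.34. Of 17 adaptors and decay factors, 7 were lower and none higher, near the shares of all models, and of the 11 tested both ways 4 were lower and 2 higher without the 13. Their summed share was higher in RIP in 16 of 24 pairs. Cpeb3, a cytoplasmic polyadenylation element binding protein gene, had -0.68 ± 0.14, Edc3, a decapping enhancer gene, -0.62 ± 0.12 and Btg1 -1.72 ± 0.31.

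Markers of the cell line and of other cells were thinly covered. Of 12 epithelial markers 7 could be tested, of which Krt7 (-0.91) and Esrp1 (-0.99) were lower and none was higher. Of the 6 tested both ways, the same pair was lower without the 13, and Cdh1 (0.61) and Cldn4 (0.98) were higher. Epcam had 4 to 34 counts in the inputs (-0.55 ± 0.31, adjusted p = 0.133). Summed, these markers held 0.0085% to 0.0286% of input counts outside the 13. Fibroblast markers held at most 0.00174%, with 0 of 8 tested, and leukocyte, endothelial and adipocyte markers had 1 tested member each. Cd68 (-0.56 ± 0.39) and Pecam1 (-0.71 ± 0.42) were not called, and with RIP libraries below 3 counts raised to that floor their values were 1.78 and 1.22. Without the 13, the leukocyte marker Ptprc was tested in place of Cd68 and called higher (2.31), with 0, 0 and 12 counts in RIP and at most 3 in the inputs. Ptprc could pass the filter on low counts only through RIP libraries, so its call is given as a description. The endothelial marker Tek was tested in place of Pecam1 and not called (0.90). Cfd, with at most 2 counts in any RIP library, was called lower by the test, but with RIP set at 3 counts its log2 ratio was 0.17, so these counts do not fix its direction.

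Between constructs, no difference passed the main test. An F test that the RIP to input ratio was equal in the 5 constructs called 0 of 6931 models (65 at an unadjusted p below 0.05), and DESeq2 also called 0 (54 unadjusted). The mean of the 4 FLAG constructs minus vector called 0 models in edgeR, with 157 higher and 46 lower at an unadjusted p below 0.05. CNOT7, D40A, E247A/Y260A and M141R minus vector each called 0 as well, with 197, 234, 192 and 197 at an unadjusted p below 0.05. Without the 13, every one of these counts was 0 in edgeR too.

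Replicate numbers moved together across constructs, which this test leaves in its residual spread. The RIP share of ENSMUSG00000045999 was 63.0% to 67.0% in the replicates numbered 9 and 56.6% to 58.9% in those numbered 10. With a term for each number, chosen after seeing the data, the ratio differed between numbers for 851 of 6931 models. In that fit 2 models differed between constructs, Rn7s1 and Rn7s2 (194 at an unadjusted p below 0.05). The FLAG mean minus vector and D40A minus vector called 0, with 317 and 297 unadjusted. E247A/Y260A and M141R minus vector called the same 2 models, and CNOT7 minus vector called these and ENSMUSG00000089855, all lower than in vector. Without the 13 the calls between constructs were of the same models.

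Rn7s1 and Rn7s2 also passed under other settings. DESeq2 called Rn7s2 lower in the FLAG constructs than in vector (adjusted p = 0.00199), and without a filter on low counts edgeR called Rn7s1 and Rn7s2 (adjusted p = 0.00493 and 0.000251). All their RIP counts were in vector RIP 7, as given above, so that these calls rest on 1 library. Without replicate number 9, 4 models differed between constructs (Spata5, Il31ra, Rn7s1 and Rn7s2). A p that misses the threshold does not show that the constructs act alike.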

How the data were processed

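RNA-seq libraries of 24 anti-FLAG RIPs and 24 inputs were analysed from 1 deposited table of raw counts per gene model. The authors made libraries with a strand-keeping kit, and the submitters' processing notes name BWA, HTSeq and mm9; versions, annotation and the strand setting are not given in the sources used here. Symbols came from the table and a gene name table, and positions from GENCODE M21 on GRCm38 by gene ID (26555 of 26899 models). Input was a portion of the lysate that went into the RIP, so libraries were paired by construct and replicate number; deviations of paired libraries correlated above 0.1 in 18 of 24 pairs. RIP was tested against input with edgeR 4.0.16 (filterByExpr, TMM, quasi-likelihood F test, pair as block, Benjamini-Hochberg adjusted p below 0.05), with 1 ratio over all constructs or 1 per construct, and again without the 13 models of highest mean RIP share. SE is the log2 ratio divided by the square root of F. The scripts were tested on simulated data. DESeq2 1.42.0, library size alone, other filters, no block, and each pair or replicate number left out were alternatives. Named outside the 13 were the 10 largest ratios in each direction among models called in every construct, with a mean of at least 10 counts in the higher group and the same direction in 24 pairs, up to 4 members of each of 22 gene lists by mean input count, up to 5 models called different between constructs (none), and Cnot7; other names were chosen after their values were seen. The members and lists were chosen with earlier results of these data known. The set under 5 scalings and a fit with a term for each replicate number in the RIP ratio were chosen after seeing the data. Where replicates were not separate cultures, p-values measure only the spread between these libraries. Results for some models are not reported here.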

Additional observations from a re-analysis of the deposited data

Results flagged for a closer look

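Values of single libraries that stood far from the others of their group were found in 21 of 215 groups examined, by a gap rule that chance meets in about 1 in 20 groups. Several groups share a library, so these are not independent.

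Counts outside the 13 models were 81280 in vector RIP 7 (the other vector RIPs had 56269 to 61980), 377943 in D40A RIP 9 (42003 to 87174) and 737629 in CNOT7 input 7 (295699 to 401745). The share of the 13 was 95.4% in M141R RIP 9 (97.3% to 98.03%).

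In the CNOT7 pair 10, whose input had the lowest share of the 13, the log2 ratio was 17.19 for Filip1l (8.5003 to 9.58 in the other CNOT7 pairs), 17.66 for Jarid2 (12.17 to 12.81), 17.72 for Tmtc2 (13.18 to 13.65), 16.80 for Cntnap5b (12.48 to 13.46), 16.37 for Galnt2 (0.0093 to 0.52) and 9.97 for Fgfr2 (2.63 to 3.68).

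In the M141R pair 9 it was 6.01 for Jarid2 (11.59 to 13.11 in the other M141R pairs), 6.09 for Tmtc2 (12.75 to 15.15), 6.10 for LOC102639045 (10.83 to 11.60), 7.42 for Atf2 (12.66 to 13.36) and 7.20 for Vwa3a (12.90 to 13.72).

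In the E247A/Y260A pair 9 it was 7.94 for Fam163b (10.33 to 11.28), -9.26 for mt-Ty (-5.63 to -4.32) and -7.88 for mt-Tc (-4.46 to -3.93). Srpk2 had -2.73 in the M141R pair 10 (-5.96 to -5.13). Atl3 had -0.68 in the vector pair 10 (-4.59 to -3.57) and -5.42 in the D40A pair 6 (-3.17 to -2.92).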

How the results depend on the processing

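Counts of called models depended on scale, filter and depth; the cause was not tested beyond what each setting changes by construction. Counts are given as higher and lower models in RIP, and construct counts in the order vector, CNOT7, D40A, E247A/Y260A, M141R. With library size alone they were 21 and 6909 over all constructs, 20 and 6620 in every construct, 21, 21, 21, 20 and 20 higher and 6889, 6803, 6762, 6872 and 6767 lower per construct. With DESeq2 they were 1519 and 1289, 156 and 129, 350, 463, 380, 428 and 528 higher and 395, 307, 289, 304 and 273 lower, and 1 model was lower in the FLAG constructs than in vector. With at least 10 counts in 24 libraries, 703 were lower over all constructs, 105 and 171 moved in every construct, 196, 212, 173 and 181 were higher in the first 4 constructs and 389, 326, 317, 371 and 335 lower. With no filter on low counts, 2216 were higher over all constructs, 200 lower in every construct, 533 and 517 lower in vector and CNOT7, 256 higher in M141R, 1 differed between constructs and 2 were lower in the FLAG constructs than in vector. Without the replicate block, 237 were lower in every construct, 52 and 49 higher in vector and CNOT7, 384 lower in D40A, and 181 lower in every construct once the 13 were removed; no other count moved by over 1.5 times without the pairing.

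Without the 13, the counts over all constructs were 2561 and 995 with library size, 2423 and 1187 with DESeq2, 519 and 593 with the stricter filter, 4218 lower with no filter, and 1216 lower at an absolute log2 ratio of at least 1, against 572 and 3199 with no model removed. In every construct they were 127 and 78 with library size, 149 and 121 with DESeq2 and 118 and 124 with the stricter filter.

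Medians of gene lists relative to all models moved under the stricter filter to 0.070 (cytosolic ribosomal), -0.41 (mitochondrial ribosomal), 2.37 (cytoskeleton), 0.13 (proteasome), 0.54 (oxidative phosphorylation), 0.18 (long noncoding) and -0.33 (small structured). With no filter they were -0.55 (cytoskeleton), -0.52 (endoplasmic reticulum), -0.56 (small structured) and -0.17 (opposite-strand), and with DESeq2 -1.20 (small structured). Galnt2 and Fgfr2 turned to -3.89 and -0.88 with library size.

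Leaving out each pair or replicate number gave 433 to 986 and 1990 to 3555 over all constructs, and 37 to 68 and 95 to 419 in every construct. Per construct the higher models ranged over 58 to 181, 62 to 245, 62 to 183, 48 to 222 and 61 to 319, and the lower over 268 to 1300, 237 to 1088, 197 to 694, 386 to 1121 and 386 to 1227. Between constructs 0 to 4 models differed, 0 to 2 were lower in the FLAG constructs, and 0 to 1, 0 to 1 and 0 to 2 differed from vector for D40A, E247A/Y260A and M141R. Without the 13, the ranges were 918 to 1668 and 1103 to 2248, and 29 to 57 and 81 to 432 in every construct. With a term for replicate numbers in the RIP ratio, added after seeing the data, 2 models differed between constructs, and 3, 2 and 2 differed from vector for CNOT7, E247A/Y260A and M141R. RIP depth outside the 13 models limits all of these.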
